A study of Mus musculus with 12 samples.

Results

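The genes described are the 5 subunits of the transcription factor NF-kB (Nfkb1, Nfkb2, Rel, Rela and Relb) and 5 genes of its inhibitors (Nfkbia, Nfkbid, Nfkbiz, Bcl3 and Tnfaip3), 10 of the 39179 gene IDs counted. They were taken by Ensembl ID from the read counts of 12 RNA sequencing libraries of mouse CD4 T cells that carry OT-II, a transgenic T cell receptor for an ovalbumin peptide. Knockout cells (KO) came from OT-II x NKG2D-/- mice, lack the activating receptor NKG2D (encoded by Klrk1) and were sorted as Thy1.1+. Wild-type cells (WT) came from OT-II mice and were sorted as Thy1.2+ NKG2D+, so genotype, NKG2D gate and Thy1 allele differ together. Naive cells of both genotypes were cultured together with antigen-presenting cells, an ovalbumin peptide and a-CD28. For Th17 cells the cultures held the cytokines IL-6, IL-1b and IL-23 with the blocking antibodies a-IL4 and a-IFNg, and IL-12 was added after the second stimulation. For Th1 cells they held IL-12 and IL-2 with the antibody a-IL-4. Polarization was done on days 0 and 5 and the cells were harvested on day 8. The 4 groups, Th17 KO, Th17 WT, Th1 KO and Th1 WT, hold 3 samples each. Which samples came from one culture or one mouse is not stated in the labels, so the p-values cover sample-to-sample spread that may be technical only.

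NF-kB dimers are held in the cytoplasm by IkB proteins and enter the nucleus when IkB kinase marks the IkB for destruction, as happens after T cell receptor, CD28 or IL-1 receptor stimulation. Among their targets are genes of their own inhibitors, which closes a negative feedback loop. A second, noncanonical arm works through the kinase NIK, processing of the Nfkb2 product and dimers that contain RelB.

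The libraries held 9108203 to 12688637 counts, apart from 3 shallow ones. Th17 KO 2, Th17 WT 2 and Th17 WT 3 held 1722228, 2731909 and 1647232 counts, and a single gene ID took 51.0%, 18.3% and 48.1% of these. No other library gave that ID more than 0.00831%. Libraries of one group differed from each other by more than counting noise, with a chi-square per degree of freedom of 2.27 to 6.26. Separate libraries made from one culture could differ by as much, so this does not show that the samples are independent. Each library was treated as a sample of its own. Klrk1 averaged 2.35 CPM in Th17 KO and 135 CPM in Th17 WT, and 4.84 CPM in Th1 KO and 149 CPM in Th1 WT, as the genotype labels state (CPM, read counts scaled to a common library size with TMM factors). The 5 T cell markers Cd3d, Cd3e, Cd3g, Cd4 and Trac were found in every library. Il17a averaged 6.51 ± 2.92 CPM in Th17 KO and 0.923 ± 1.27 CPM in Th17 WT (SD, n = 3 each), and no read of it was counted in Th1. Ifng averaged 55.0 CPM in Th17 KO, 195 CPM in Th17 WT, 647 CPM in Th1 KO and 748 CPM in Th1 WT. Il17a ran from 3.15 to 8.49 CPM in the Th17 KO libraries and from 0 to 2.37 CPM in the Th17 WT libraries. Ifng was lower and Il17a higher in Th17 KO than in Th17 WT (adjusted p = 0.00566 and 0.00504, edgeR), so these groups differed in lineage genes as well as in Klrk1.

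Other measures moved with the culture or genotype. The 12 genes chosen as markers of antigen-presenting and B cells summed to 87.2 to 94.9 CPM in Th17 KO, 64.4 to 82.9 CPM in Th17 WT, 15.3 to 19.1 CPM in Th1 KO and 15.5 to 17.5 CPM in Th1 WT. Between 6 and 12 of the 12 had counts in a library. Most of the sum was Cd74, at a mean of 52.6 CPM in Th17 KO, 35.4 CPM in Th17 WT, 2.54 CPM in Th1 KO and 2.02 CPM in Th1 WT, and H2-Ab1, at 32.1, 31.6, 13.1 and 14 CPM in the same groups. Among the markers that define these cells, Ms4a1 had 0 counts in Th17 WT and Th1 WT and Csf1r had 0 counts in both Th1 groups. Mitochondrially encoded genes took 19.0 to 20.8% of the remaining counts in Th17 KO, 16.9 to 18.6% in Th17 WT, 14.6 to 15.1% in Th1 KO and 14.2 to 14.8% in Th1 WT. The part of these measures in the results below was not tested. In bulk RNA, fewer cells of a type and less RNA per cell cannot be told apart.

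All 10 genes passed the filter on low counts that left 12189 genes for testing. By GRCm38 coordinates, the subunit genes lie at chr3:135584655-135691547 (Nfkb1, ENSMUSG00000028163), chr19:46304320-46312385 (Nfkb2, ENSMUSG00000025225), chr11:23736847-23770970 (Rel, ENSMUSG00000020275), chr19:5637483-5648130 (Rela, ENSMUSG00000024927) and chr7:19606217-19629438 (Relb, ENSMUSG00000002983). The inhibitor genes lie at chr12:55489410-55492647 (Nfkbia, ENSMUSG00000021025), chr7:30421732-30428746 (Nfkbid, ENSMUSG00000036931), chr16:55811375-55838899 (Nfkbiz, ENSMUSG00000035356), chr7:19808462-19822770 (Bcl3, ENSMUSG00000053175) and chr10:19000910-19015657 (Tnfaip3, ENSMUSG00000019850). Exons of Nfkb2 overlap those of Psd, and exons of Bcl3 those of the antisense gene Gm16175, both on the opposite strand. The libraries did not keep strand, so reads in these overlaps cannot be assigned and the values of Nfkb2 and Bcl3 carry that uncertainty.

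Promoters are shown because several of the genes moved together between cultures, and because NF-kB is known to act on the promoters of its own inhibitors. RefSeq windows on GRCm38.p6, from 250 bases before to 50 after a transcription start, were at hand for 7 of the 10 genes and were searched on both strands for the 10-base kB consensus. The outermost window of Nfkb2, Rel, Nfkbia, Bcl3 and Tnfaip3 held a match, 5 of the 7, against 1168 of 27025 genes (4.32%) in the same table. Those of Rela and Nfkbid held none, and a window of Nfkbid that starts further in held 2 matches. A match describes letters only and was not tested for binding. Capitals mark the matched letters in the stretches that follow, each 5′ to 3′ on the gene's strand, with positions counted from the start as +1. Nfkbia (chr12:55492648-55492897, minus strand, -250 to -1) holds 1 match at -29 to -20. Rel (chr11:23770970-23771219, minus strand, -250 to -1) holds overlapping matches from -92 to -82. Of Tnfaip3 (minus strand) chr10:19015516-19015545 is -135 to -106 and chr10:19015403-19015432 is -22 to 8, with 1 match each. There is no position 0. Of Nfkb2 (plus strand) chr19:46304688-46304717 is -49 to -20, with overlapping matches on both strands, and chr19:46304716-46304745 is -21 to 9, with 1 match. The starts used for Tnfaip3 and Nfkb2 lie inside the gene spans given above, so upstream here means before the start used. Of the 250 bases before that start, 250 are annotated exon for Nfkb2 and 110 for Tnfaip3.
Nfkbia: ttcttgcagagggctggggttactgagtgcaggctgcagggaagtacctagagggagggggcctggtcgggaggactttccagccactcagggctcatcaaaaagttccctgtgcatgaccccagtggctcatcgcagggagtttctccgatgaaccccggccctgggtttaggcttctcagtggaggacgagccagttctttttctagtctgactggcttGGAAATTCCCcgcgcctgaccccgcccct
Rel: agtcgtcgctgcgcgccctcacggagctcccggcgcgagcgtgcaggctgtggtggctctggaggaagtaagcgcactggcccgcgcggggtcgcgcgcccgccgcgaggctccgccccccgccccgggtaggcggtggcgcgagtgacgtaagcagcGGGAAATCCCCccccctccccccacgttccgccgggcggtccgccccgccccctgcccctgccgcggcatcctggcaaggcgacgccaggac
Tnfaip3 upstream: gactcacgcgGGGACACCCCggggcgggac
Tnfaip3 at the start: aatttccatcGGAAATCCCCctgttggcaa
Nfkb2 upstream: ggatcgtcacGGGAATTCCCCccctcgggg
Nfkb2 at the start: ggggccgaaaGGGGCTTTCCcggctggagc

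Levels between genes were compared as CPM per kb of merged exons. Nfkbia, which encodes IkBa, the classical cytoplasmic inhibitor, had the highest level of the 10 in every group, at 206 ± 33.7 CPM per kb in Th17 KO, 169 ± 27.2 in Th17 WT, 78.9 ± 1.36 in Th1 KO and 88.0 ± 3.06 in Th1 WT (SD, n = 3 each). Rel, which encodes c-Rel, was lowest in every group, at 1.48, 1.48, 0.901 and 1.26 CPM per kb in the same order. Tnfaip3, which encodes A20, a ubiquitin-editing enzyme that shuts down signals to IkB kinase, was second in both Th17 groups, at 60.1 ± 2.44 CPM per kb in Th17 KO and 66.5 ± 5.22 in Th17 WT. In the Th1 groups it lay seventh and sixth, at 8.42 ± 0.551 CPM per kb in Th1 KO and 11.6 ± 0.828 in Th1 WT. In Th1 KO the ranges of Bcl3, Nfkbid, Tnfaip3, Nfkbiz and Relb overlapped from each to the next in the order, so the order among them was not resolved. Nfkb2 and Rela overlapped in both Th1 groups, Nfkb1 and Rela in Th17 WT, and Bcl3 and Relb in Th17 KO. Nfkbiz and Nfkbid overlapped in both WT groups. The order also depends on the length used. Per kb of longest transcript, Nfkb1 (72.6) lay above Tnfaip3 (70.1) in Th17 KO, and their ranges overlapped in both Th17 groups. On that length Nfkbia (80.5) and Nfkb1 (79.8) overlapped in Th1 KO.

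**Figure D1:**
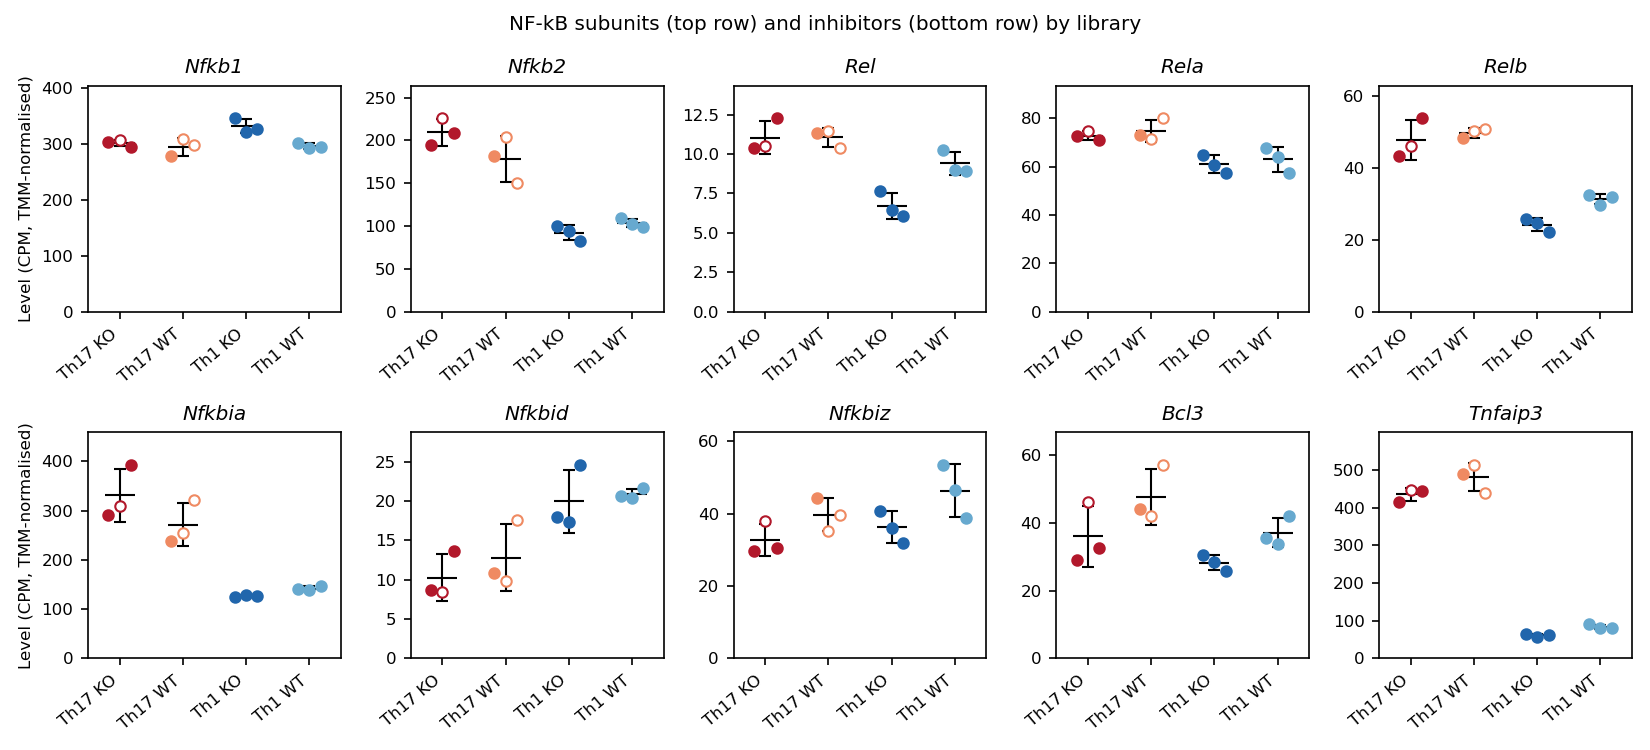
Level of each gene in CPM (TMM-normalised, linear axes from 0) in the 12 libraries by group, with the group mean and SD as black bars and the 3 shallow libraries as open circles. Tnfaip3, Nfkbia, Nfkb2 and Relb lie higher in every Th17 library than in any Th1 library, Nfkbid lies lower in Th17 than in Th1 within each genotype, and the Nfkb1 panel is nearly flat.

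Th17 libraries were first set against Th1 libraries of the same genotype. Of the 10 genes, 6 were higher and 2 lower in Th17 KO than in Th1 KO, and 5 were higher and 1 lower in Th17 WT than in Th1 WT (edgeR quasi-likelihood F-test, Benjamini-Hochberg adjusted p under 0.05). Over all 12189 genes, 53.6% were called among KO libraries and 47.1% among WT libraries. Of all genes, 26.9% were higher and 26.7% lower among KO libraries, and 23.5% were higher and 23.6% lower among WT libraries, so changed genes were common in these comparisons. The genes' median log2 fold change was 0.50 in KO and 0.27 in WT, against 0.00 and -0.01 over all genes. Groups did not overlap for 6 genes higher and 2 lower in KO (27.1% and 28.6% of all genes) and for 7 higher and 1 lower in WT (24.6% and 27.5%).

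Among the subunits, Nfkb2 and Relb, the pair of the noncanonical arm, rose in Th17 cells of both genotypes. Nfkb2, whose product is the precursor of the p52 subunit, had 195, 226 and 209 CPM in the 3 Th17 KO libraries, against 100, 94.6 and 82.6 CPM in Th1 KO. In WT it had 181, 204 and 151 CPM in Th17, against 109, 103 and 99.3 CPM in Th1. No Th17 library overlapped with a Th1 library, and the log2 fold change was 1.16 ± 0.08 (SE, adjusted p = 9.67e-11) in KO and 0.81 ± 0.09 (adjusted p = 6.46e-08) in WT. Relb, whose product pairs with p52, had 43.3, 46.2 and 53.8 CPM in Th17 KO, against 25.7, 24.6 and 22.2 CPM in Th1 KO. It had 48.2, 50.2 and 50.9 CPM in Th17 WT, against 32.4, 29.7 and 32.1 CPM in Th1 WT. Its log2 fold change was 1.0 ± 0.09 (adjusted p = 9.96e-10) in KO and 0.65 ± 0.10 (adjusted p = 4.29e-06) in WT, again with no overlap.

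The canonical subunits moved less. Rela, which encodes p65, the main activating subunit, had 72.8, 74.6 and 71.0 CPM in Th17 KO, against 64.7, 60.7 and 57.4 CPM in Th1 KO. It had 72.9, 71.2 and 79.9 CPM in Th17 WT, against 67.5, 63.9 and 57.4 CPM in Th1 WT. Its log2 fold change of 0.25 ± 0.07 in KO (adjusted p = 0.00654) and 0.22 ± 0.08 in WT (adjusted p = 0.0210) passed the threshold in both. The WT call was lost under 7 of 20 alternatives. Among them were leaving out Th1 WT 3, Th17 WT 1 or Th17 WT 3 (adjusted p = 0.115, 0.0888 and 0.0539, edgeR). DESeq2 (adjusted p = 0.0588), no filter on low counts (0.0741, edgeR) and thinning to the smallest total (0.0926, edgeR) lost it as well. After thinning the KO value was 0.043 and did not pass (adjusted p = 0.832, edgeR).

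Rel, a subunit that T cells induce on activation, had 10.4, 10.5 and 12.3 CPM in Th17 KO, against 7.65, 6.46 and 6.06 CPM in Th1 KO, a rise of 0.75 ± 0.15 on the log2 scale (adjusted p = 1.24e-04). In WT it had 11.4, 11.5 and 10.4 CPM in Th17, against 10.2, 9.01 and 8.95 CPM in Th1, groups that did not overlap but gave a log2 fold change of 0.26 ± 0.16 that missed the threshold (adjusted p = 0.176). Rel was the most thinly counted subunit, with 10 counts each in Th17 KO 2 and Th17 WT 3. Nfkb1, whose product is the precursor of p50, had 302, 307 and 295 CPM in Th17 KO, against 346, 321 and 326 CPM in Th1 KO. Its log2 fold change of -0.14 ± 0.06 in KO passed narrowly (adjusted p = 0.0474). That call was lost under 13 of 20 alternatives, among them leaving out any Th1 library or Th17 KO 1 or 3, where the adjusted p lay between 0.0502 and 0.169. In WT, Nfkb1 had 277, 308 and 298 CPM in Th17, against 302, 293 and 293 CPM in Th1 (log2 fold change -0.02 ± 0.06, adjusted p = 0.866).

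Tnfaip3 had the widest span of the 10 genes. It had 414, 445 and 444 CPM in Th17 KO, against 64.3, 56.5 and 61.9 CPM in Th1 KO. In WT it had 489, 513 and 439 CPM in Th17, against 90.5, 81.2 and 79.3 CPM in Th1. The lowest Th17 library of either genotype lay far above the highest Th1 library, and the level in Th17 was 7.13-fold higher in KO (log2 2.83 ± 0.07, adjusted p = 1.67e-20) and 5.78-fold higher in WT (log2 2.53 ± 0.07, adjusted p = 4.52e-19). Without the 3 shallow libraries the log2 values were 2.81 in KO and 2.55 in WT. Nfkbia had 292, 309 and 393 CPM in Th17 KO, against 125, 129 and 127 CPM in Th1 KO, and 238, 255 and 321 CPM in Th17 WT, against 140, 138 and 147 CPM in Th1 WT. Its log2 fold change was 1.40 ± 0.11 in KO (adjusted p = 1.31e-07) and 0.90 ± 0.11 in WT (adjusted p = 1.81e-05), with no overlap between Th17 and Th1 libraries. The searched windows of Tnfaip3 and Nfkbia hold kB matches, as do those of Nfkb2 and Rel. The window of Bcl3, which did not pass in either genotype, holds its match after the start, at 3 to 12. Rela, which passed in both, had 0 matches in its window, and Relb had no window to search. Whether the matches bear on these differences was not tested.

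Of the 3 genes of nuclear IkB proteins, which bind NF-kB on DNA and can raise or lower transcription, Nfkbid passed, as lower in Th17, and Nfkbiz and Bcl3 did not. Nfkbid, encoding IkBNS, was lower in Th17 cells, at 8.64, 8.40 and 13.7 CPM in Th17 KO, against 18, 17.3 and 24.6 CPM in Th1 KO, and at 10.8, 9.89 and 17.7 CPM in Th17 WT, against 20.6, 20.4 and 21.6 CPM in Th1 WT. The groups did not overlap in either genotype, and the log2 fold change was -0.87 ± 0.18 in KO (adjusted p = 3.94e-04) and -0.89 ± 0.20 in WT (adjusted p = 0.00108). The WT call was lost without Th17 WT 1 (log2 fold change -0.78, adjusted p = 0.0713), and the shallow libraries held 8, 25 and 17 counts of Nfkbid. Nfkbiz, encoding IkBz, a cofactor that mouse Th17 development needs, had 29.7, 37.8 and 30.6 CPM in Th17 KO, against 40.7, 36.1 and 31.8 CPM in Th1 KO. It had 44.4, 35.2 and 39.5 CPM in Th17 WT, against 53.5, 46.6 and 38.9 CPM in Th1 WT. These groups overlapped and the log2 fold changes of -0.23 ± 0.12 in KO and -0.16 ± 0.13 in WT missed the threshold (adjusted p = 0.125 and 0.316), though the KO value passed without Th1 KO 3 (-0.32, adjusted p = 0.0395). Bcl3, whose product binds p50 and p52 dimers, had 29.0, 46.2 and 32.7 CPM in Th17 KO, against 30.3, 28.3 and 25.8 CPM in Th1 KO. In WT it had 44.0, 41.9 and 57.1 CPM in Th17, against 35.5, 33.8 and 41.9 CPM in Th1. Its log2 fold change was 0.19 ± 0.12 in KO (adjusted p = 0.176) and 0.28 ± 0.12 in WT (adjusted p = 0.0542), and the WT groups lay just apart. The WT value passed without Th1 WT 3, Th17 KO 1 or Th17 KO 2 (adjusted p = 0.0130, 0.0422 and 0.0357).

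**Figure D2:**
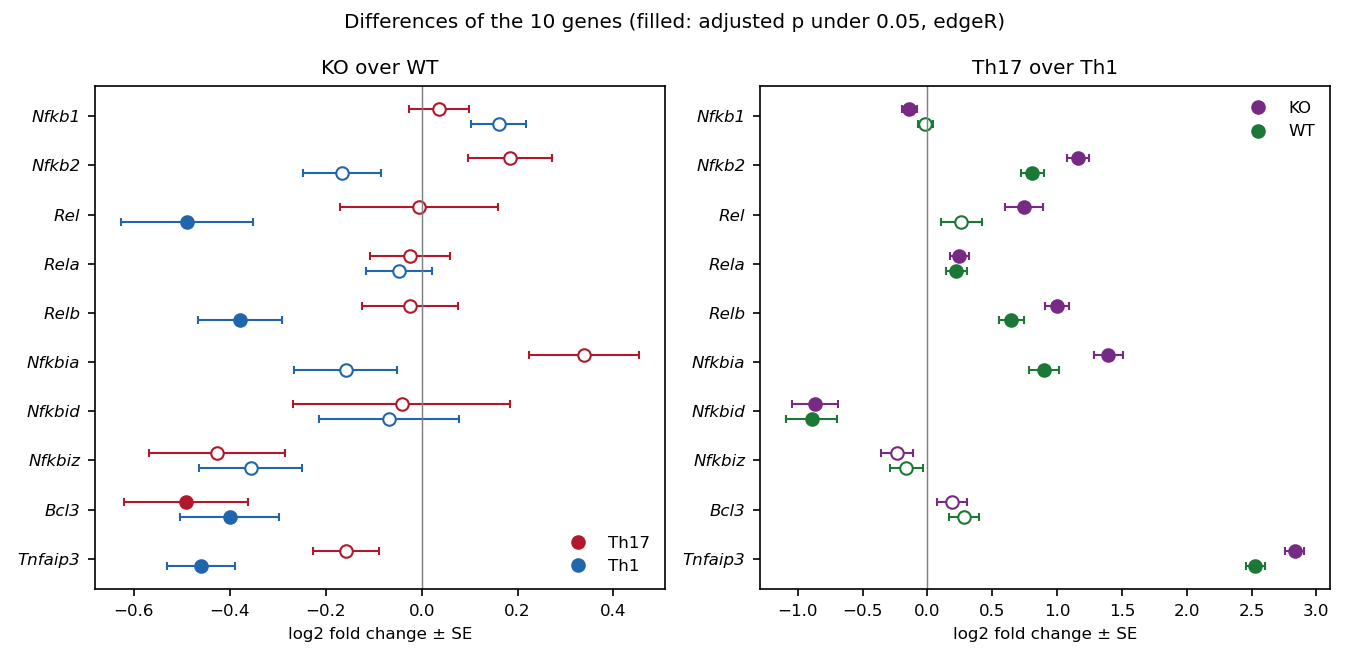
Log2 fold change with its SE for the 10 genes, KO over WT in Th17 and Th1 cells on the left and Th17 over Th1 in KO and WT cells on the right. Filled circles passed an adjusted p of 0.05 in edgeR. On the right, Tnfaip3 stands apart at 2.83 in KO and 2.53 in WT. On the left, where the axis is narrower, no value exceeds 0.49 in size.

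KO cells were then set against WT cells within the Th17 cultures. Of the 10 genes, 1 was lower and 0 were higher in Th17 KO by edgeR, where 5.83% of all genes were called, 4.02% lower and 1.81% higher. At an unadjusted p under 0.05 there were 3 lower and 2 higher, and the share of all genes at that level is not reported here. DESeq2 called 0 of the 10 genes and 488 of all 12189 genes. Of the same genes, limma-voom called 1 and 463. The median log2 fold change was -0.02, against 0.00 over all genes. Ranges of the groups overlapped for all 10 genes, where 8.94% of all genes were higher and 9.59% lower without overlap.

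The gene that passed was Bcl3, lower in Th17 KO by 0.49 ± 0.13 on the log2 scale (adjusted p = 0.0242), with 29.0, 46.2 and 32.7 CPM in Th17 KO, against 44.0, 41.9 and 57.1 CPM in Th17 WT. The shallow Th17 KO 2 lay above 2 of the 3 Th17 WT libraries. The call was lost without Th17 KO 1, Th17 KO 3, Th17 WT 1 or Th17 WT 3 (adjusted p = 0.177, 0.0705, 0.0882 and 0.0583), and the value without the 3 shallow libraries was -0.52 (adjusted p = 0.0399). That fit has 1 Th17 WT library left, which is assumed to vary like the other groups. Nfkbiz gave -0.43 ± 0.14 (adjusted p = 0.0940) and passed without Th1 WT 1 (adjusted p = 0.0424) or Th1 WT 3 (adjusted p = 0.0310). Nfkbia gave 0.34 ± 0.11 (adjusted p = 0.122), with 2 of 3 Th17 KO libraries below the highest Th17 WT library. It passed without Th17 KO 1 (0.45, adjusted p = 0.0191) or Th17 WT 3 (0.45, adjusted p = 0.0151), and both it and Nfkbiz passed when no filter on low counts was used. Tnfaip3 gave -0.16 ± 0.07 (adjusted p = 0.220) and Nfkb2 0.18 ± 0.09 (adjusted p = 0.287). The other 5 genes, Nfkb1, Rel, Rela, Relb and Nfkbid, had log2 fold changes between -0.04 and 0.04. Their SEs ran from 0.06 for Nfkb1 to 0.23 for Nfkbid, so a difference the size of those in Th1 was measured least closely for Nfkbid and Rel.

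Within the Th1 cultures, 4 of the 10 genes were lower and 0 higher in KO cells, where 4.61% of all genes were called, 2.92% lower and 1.69% higher. The median log2 fold change of the 10 was -0.26, against -0.00 over all genes, and 9 of 10 had negative values. At an unadjusted p under 0.05 there were 5 lower and 1 higher, and the share of all genes at that level is not reported here. DESeq2 called 2 lower and 0 higher, where it called 317 of all 12189 genes. With limma-voom 5 were lower and 1 higher, where it called 1074 of all genes. The genes that passed by edgeR were the subunits Rel and Relb and the inhibitors Tnfaip3 and Bcl3. Groups did not overlap for 5 genes lower in Th1 KO and for 1 gene higher, where 13.4% and 11.1% of all genes did not.

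Tnfaip3 had 64.3, 56.5 and 61.9 CPM in Th1 KO, against 90.5, 81.2 and 79.3 CPM in Th1 WT, with no overlap. Its log2 fold change was -0.46 ± 0.07 (adjusted p = 1.45e-04) and passed whichever library was left out (adjusted p between 6.72e-05 and 0.00439). With all libraries thinned to the smallest total it did not pass, at -0.27 (adjusted p = 0.259). Relb had 25.7, 24.6 and 22.2 CPM in Th1 KO, against 32.4, 29.7 and 32.1 CPM in Th1 WT, also apart. It fell by 0.38 (SE 0.09, adjusted p = 0.0107), and without Th1 KO 3 the value was -0.32 (adjusted p = 0.0725). Rel had 7.65, 6.46 and 6.06 CPM in Th1 KO, against 10.2, 9.01 and 8.95 CPM in Th1 WT, apart again. It fell by 0.49 (SE 0.14, adjusted p = 0.0374), but missed the threshold without Th1 KO 2, Th1 KO 3, Th1 WT 1, Th1 WT 2 or Th1 WT 3 (adjusted p = 0.167, 0.155, 0.162, 0.0900 and 0.0629).

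Bcl3 had 30.3, 28.3 and 25.8 CPM in Th1 KO, against 35.5, 33.8 and 41.9 CPM in Th1 WT. It fell by 0.40 (SE 0.10, adjusted p = 0.0255) with no overlap, and missed the threshold without Th1 KO 2, Th1 KO 3 or Th1 WT 3 (adjusted p = 0.0972, 0.120 and 0.152). Leaving out Th1 KO 2 thus left Relb and Tnfaip3, and leaving out Th1 KO 3 left Tnfaip3 alone of the 4. Nfkbiz, with 40.7, 36.1 and 31.8 CPM in Th1 KO, against 53.5, 46.6 and 38.9 CPM in Th1 WT, missed narrowly (-0.36 ± 0.11, adjusted p = 0.0720). It passed without Th1 KO 1 (adjusted p = 0.0365) or Th1 WT 3 (adjusted p = 0.00639). Nfkbia had lower values in each Th1 KO library than in any Th1 WT library, at 125, 129 and 127 CPM against 140, 138 and 147 CPM, but its log2 fold change of -0.16 ± 0.11 did not pass (adjusted p = 0.530). Nfkb1 was the gene whose groups did not overlap in the other direction, with 346, 321 and 326 CPM in Th1 KO, against 302, 293 and 293 CPM in Th1 WT (0.16 ± 0.06, adjusted p = 0.118). It passed in the fits on the 2 Th1 groups alone and without the shallow libraries (adjusted p = 0.0242 and 0.0417). Nfkb2 gave -0.17 ± 0.08 (adjusted p = 0.308), Nfkbid -0.07 ± 0.15 (adjusted p = 0.893) and Rela -0.05 ± 0.07 (adjusted p = 0.829).

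Whether KO and WT differed by unequal amounts in Th17 and in Th1 was tested as an interaction. It called 0 of the 10 genes by edgeR, 0 by DESeq2 and 0 by limma-voom, where edgeR called 0.591% of all genes, 0.115% with positive and 0.476% with negative values. Of all 12189 genes, DESeq2 called 81 and limma-voom 61. At an unadjusted p under 0.05 there were 5, Nfkb2, Rel, Relb, Nfkbia and Tnfaip3, all with positive values, from 0.30 ± 0.10 for Tnfaip3 (adjusted p = 0.201) to 0.50 ± 0.16 for Nfkbia (adjusted p = 0.248). The share of all genes at that unadjusted p is not reported here. Nfkbia passed without Th17 KO 1 (0.61, adjusted p = 0.0406). In simulated counts the interaction test recovered 32% of 1.5-fold changes, so 0 calls do not show that the differences were equal. Rel, Relb and Tnfaip3 were called in Th1 cells and not in Th17 cells. The interaction that tests this difference did not pass for them (adjusted p = 0.448, 0.312 and 0.201, edgeR), so a difference between the cultures was not established. The same holds for the larger Th17 over Th1 values in KO than in WT, which are the same contrast read the other way. The comparisons of KO with WT share libraries with those of Th17 with Th1 (each Th1 KO library enters both a KO to WT and a Th17 to Th1 value), so they are not independent of each other.

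The make-up of the subunit mRNA differed between cultures. Per kb of merged exons, Nfkb2 made up 42.2 ± 1.51% of the 5 subunit mRNAs in Th17 KO and 38.1 ± 4.08% in Th17 WT, and 27.0 ± 1.20% in Th1 KO and 29.4 ± 0.153% in Th1 WT (SD, n = 3 each). Nfkb1 made up 23.1 ± 0.917% in Th17 KO, 24.0 ± 1.14% in Th17 WT, 36.8 ± 1.43% in Th1 KO and 31.9 ± 0.861% in Th1 WT. Rela held 21.9%, 23.9%, 26.6% and 26.6%, Relb 11.4%, 12.6%, 8.34% and 10.5%, and Rel 1.37%, 1.45%, 1.20% and 1.63% in the same order of groups. Nfkb2 thus led in the Th17 groups and Nfkb1 in the Th1 groups on this scale. The order between genes depends on the length used, since the merged exons of Nfkb1 span 12061 bases and its longest transcript 4149. Per kb of longest transcript, Nfkb1 led in all 4 groups, at 42.7%, 43.9%, 59.3% and 53.9%, and Nfkb2 made up 32.0%, 28.7%, 17.8% and 20.4%. The share of Nfkb2 was higher in every Th17 library than in any Th1 library with either length. These shares are descriptions and carry no test of their own.

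**Figure D3:**
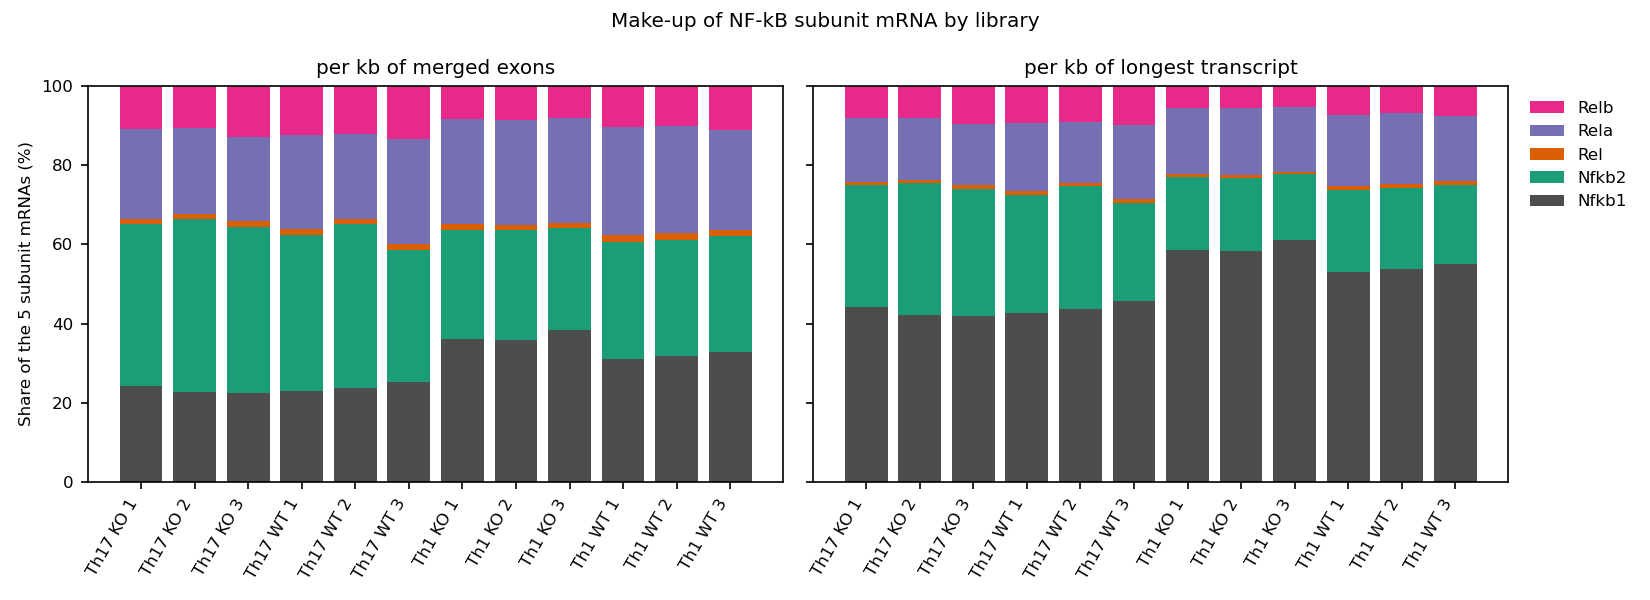
Share of each subunit in the summed level of the 5 subunit mRNAs (percent, stacked to 100) in each of the 12 libraries, per kb of merged exons on the left and of longest transcript on the right. The green Nfkb2 band is wider in the 6 Th17 libraries than in the 6 Th1 libraries in both panels, while the grey Nfkb1 band is larger throughout on the right.

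The rest of the pathway was read from 6 lists with 75 genes, 74 of them tested. Of these, 32 were higher and 21 lower in Th17 KO than in Th1 KO (26.9% and 26.7% of all genes), and 28 higher and 20 lower in Th17 WT than in Th1 WT (23.5% and 23.6%). Of the 12 other inhibitors and ubiquitin editors, 7 were higher and 4 lower in Th17 KO than in Th1 KO, and 6 higher and 2 lower in Th17 WT than in Th1 WT (median log2 fold change 0.36 and 0.23). The leading genes were Tnip1 and Tnip2, whose products bind A20 or its ubiquitin targets. Tnip1 averaged 144 ± 15.4 CPM in Th17 KO and 53.6 ± 1.48 CPM in Th1 KO, and 115 ± 2.55 CPM in Th17 WT and 51.7 ± 0.644 CPM in Th1 WT (log2 fold change 1.38 and 1.15). Tnip2 averaged 41.6 ± 0.999 CPM in Th17 KO and 17.7 ± 1.17 CPM in Th1 KO, and 45.6 ± 1.22 CPM in Th17 WT and 16.7 ± 1.12 CPM in Th1 WT (log2 fold change 1.23 and 1.43). Tnip1 and Tnip2 were thus higher in the same libraries as Tnfaip3. Itch and Commd1 of the same list were called lower in both genotypes, and Tax1bp1 in KO. The Itch calls were lost under 14 of 20 alternatives in KO and 6 in WT. Those of Commd1 were lost under 3 in KO and 4 in WT, among them DESeq2 (adjusted p = 0.0794 and 0.0617). The Tax1bp1 call was lost without Th1 KO 1 (adjusted p = 0.0692, edgeR).

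Of 11 genes of IkB kinase, TAK1 and the LUBAC ubiquitin ligase, 2 were higher and 3 lower in Th17 KO than in Th1 KO, and 1 higher and 2 lower in Th17 WT than in Th1 WT (median -0.08 and -0.06). DESeq2 and limma-voom likewise called 3 of the list lower in KO and 2 lower in WT. Map3k7, which encodes TAK1, rose by 0.49 ± 0.07 in KO and by 0.33 ± 0.07 in WT. Its WT call was lost after thinning (0.25, adjusted p = 0.0656, edgeR). Chuk and Rbck1 of the same list were among the 3 called lower in KO. The Chuk call was lost after thinning and without Th17 KO 1 (adjusted p = 0.253 and 0.114, edgeR). The Rbck1 call was lost without Th1 KO 2 or Th17 KO 3 (adjusted p = 0.0616 and 0.0852, edgeR). Of 10 genes that link the T cell receptor or MyD88 to IkB kinase, 4 were higher and 1 lower in KO, and 3 higher and 1 lower in WT (median 0.07 and 0.15). Malt1, a protease of the complex that joins the receptor to IkB kinase, rose by 0.86 ± 0.06 in KO and 0.74 ± 0.06 in WT, while Prkcq, the kinase that switches this complex on, fell by 0.94 in KO and 0.63 in WT (SE 0.07 each). Of 8 genes of the noncanonical arm, 4 were higher and 1 lower in KO, and 3 higher and 0 lower in WT (at an unadjusted p under 0.05 and by DESeq2 and limma-voom also 0 lower), with medians of 0.60 and 0.30. Map3k14, which encodes NIK, rose by 0.55 ± 0.15 in KO (0.32 without Th17 KO 3, adjusted p = 0.0929) and 0.63 ± 0.16 in WT (adjusted p = 0.0554 without Th17 WT 1). Birc2, encoding cIAP1, a ligase that keeps NIK low, rose by 0.65 ± 0.07 in KO and 0.30 ± 0.08 in WT.

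Of 14 receptors upstream of NF-kB, 6 were higher and 5 lower in Th17 KO than in Th1 KO, and 6 higher and 6 lower in Th17 WT than in Th1 WT. Il1r1, the IL-1 receptor, averaged 13.2 ± 4.08 CPM in Th17 KO and 1.11 ± 0.736 CPM in Th1 KO, and 5.69 ± 1.26 CPM in Th17 WT and 0.321 ± 0.0987 CPM in Th1 WT. Cd27, a costimulatory receptor, rose by 2.03 ± 0.17 in KO and 2.02 ± 0.17 in WT. Il18rap, a chain of the IL-18 receptor, fell by 1.48 in KO and 1.12 in WT (SE 0.11 each), and Tnfrsf1b, a TNF receptor, by 1.10 in KO (SE 0.07) and 1.07 in WT (SE 0.08).

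Of 20 textbook targets of NF-kB, 19 were tested, 9 of them higher and 7 lower in Th17 KO than in Th1 KO, and 9 higher and 9 lower in Th17 WT than in Th1 WT (median 0.13 and -0.06). Traf1, an adaptor, rose by 0.96 ± 0.07 in KO and 0.94 ± 0.07 in WT, and Birc3, encoding cIAP2, by 0.88 ± 0.08 and 0.63 ± 0.08. Sod2, a mitochondrial antioxidant enzyme, fell by 0.89 in both (SE 0.08 in KO and 0.09 in WT). Lta, a cytokine of the TNF family, averaged 17.1 ± 4.17 CPM in Th17 KO and 161 ± 7.30 CPM in Th1 KO. Cd83, chosen after its values were seen because it is the far point of the list, averaged 3.26 CPM in Th17 KO and had 0 counts in Th1 KO, so it was at least 40.6-fold higher when the whole Th1 KO group is given 3 counts as its floor, and the list's median with that bound is still 0.13. The targets thus held called genes in both directions, on a background of 53.6% of all genes called in KO and 47.1% in WT.

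**Figure D4:**
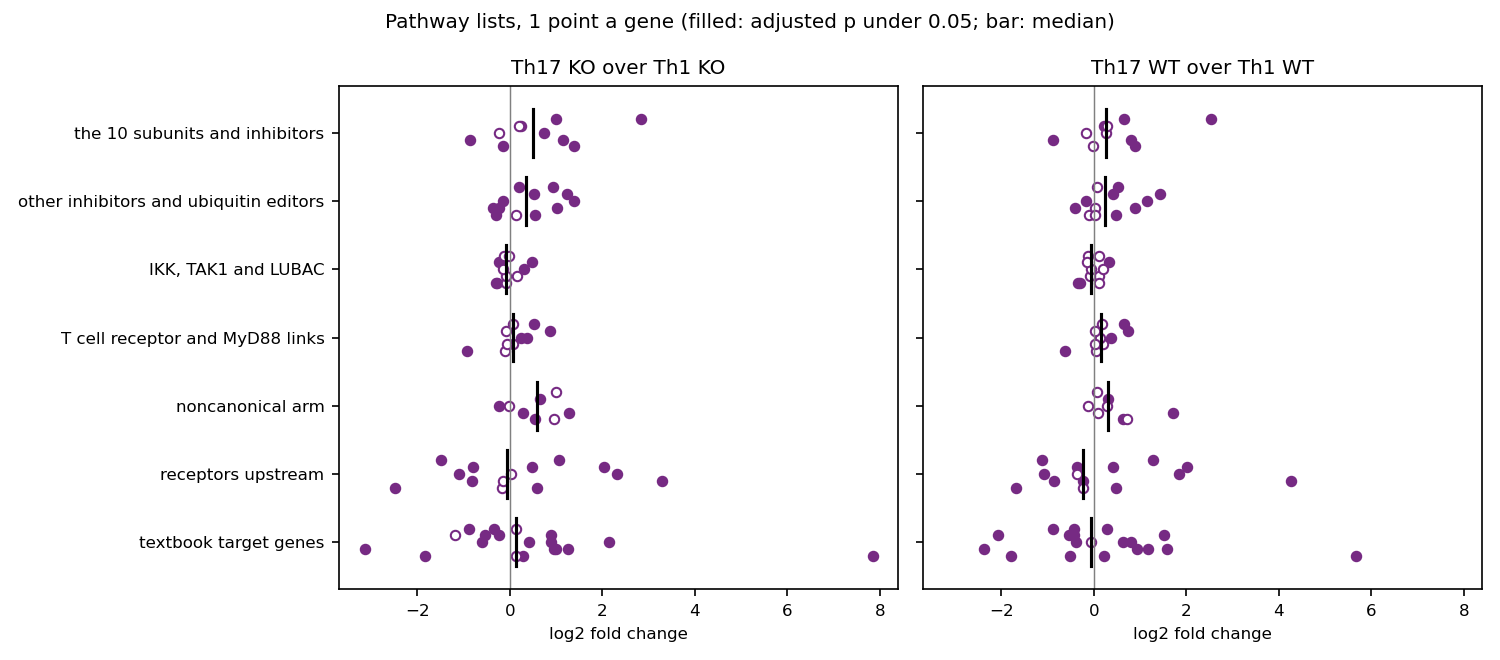
Log2 fold change of Th17 over Th1 in KO cells (left) and WT cells (right) for the 10 genes and 6 pathway lists, 1 point a gene, filled where the adjusted p was under 0.05, with the list median as a bar. Medians lie at 0.50 and 0.27 for the 10 genes and near 0 for IkB kinase, TAK1 and LUBAC, and the far right point of each panel is Cd83, whose fitted value rests on 0 or 1 counts in Th1 libraries.

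In the comparison of KO with WT, edgeR called 10 of the 74 genes in Th17 (13.5%, against 5.83% of all genes) and 11 of 74 in Th1 (14.9%, against 4.61%). These shares are descriptions with no test. In Th17, 4 of the 74 were higher and 6 lower (1.81% and 4.02% of all genes), and in Th1, 1 was higher and 10 lower (1.69% and 2.92%). Among the Th17 calls, 1 of the 12 other inhibitors passed, Tnip1 at 0.28 ± 0.07 (adjusted p = 0.0196, 0.0975 without Th17 WT 1 and 0.0923 without the shallow libraries, and 0.0702 by DESeq2 and 0.0601 by limma-voom), and 1 of 11 in the IkB kinase list, Tab2, an adaptor of TAK1, at -0.33 ± 0.07 (adjusted p = 0.00357). Of the 10 receptor links, 3 were lower, led by Prkcq at -0.56 ± 0.08 (adjusted p = 5.59e-05), with 105 ± 15.5 CPM in Th17 KO and 150 ± 9.07 CPM in Th17 WT. The 8 noncanonical genes had 0 calls by edgeR, DESeq2 and limma-voom and 0 at an unadjusted p under 0.05. Of 14 receptors 2 were lower, Il18r1 at -0.82 ± 0.09 and Il18rap at -0.80 ± 0.12, both chains of the IL-18 receptor. Of 19 targets 3 were higher by edgeR, 2 by DESeq2 and 0 by limma-voom, led by Bcl2l1, a survival gene (0.34 ± 0.08, adjusted p = 0.0132, and 0.0857 without Th17 KO 1, 0.0718 without Th17 WT 2 and 0.211 without the shallow libraries).

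In Th1, 3 of 10 receptor links were lower in KO. Malt1 gave -0.22 ± 0.06 (adjusted p = 0.0262), and its adjusted p lay between 0.0572 and 0.124 when any 1 of the 6 Th1 libraries was left out. Of 14 receptors 5 were lower and 1 higher (DESeq2 called 3 lower and 1 higher, limma-voom 6 and 1), led by Cd28, the costimulatory receptor that the cultures were stimulated through (-0.31 ± 0.06, adjusted p = 0.00313), and by Il18r1 (-0.37 ± 0.08, adjusted p = 0.0101, and 0.0602 without Th1 KO 2). The receptor gene that was higher was Il1r1, at 1.83 ± 0.49 (adjusted p = 0.0277) on means near 1 CPM or below, a call lost without Th1 KO 2, Th1 WT 1, Th1 WT 2 or Th1 WT 3 (adjusted p = 0.385, 0.0736, 0.0783 and 0.129). The other inhibitors and the IkB kinase list had 0 calls by edgeR and DESeq2, with 3 of 12 and 1 of 11 at an unadjusted p under 0.05, and limma-voom called 1 and 0. Birc2 was the gene called of 8 in the noncanonical arm (-0.25 ± 0.07, adjusted p = 0.0374), a call lost without Th1 KO 1, Th1 KO 3, Th1 WT 1 or Th1 WT 2 (adjusted p between 0.0921 and 0.192). Birc3 was the gene called of 19 targets (-0.28 ± 0.08, adjusted p = 0.0311), lost without any 1 of Th1 KO 1, 2 and 3 and Th1 WT 1 and 2 (adjusted p between 0.0573 and 0.150). Prkcq, lower in Th17 KO, was also lower in Th1 KO, at -0.25 ± 0.07 (adjusted p = 0.0283), a Th1 call lost without Th1 KO 1, Th1 KO 2, Th1 WT 2 or Th1 WT 3 (adjusted p = 0.124, 0.151, 0.164 and 0.0904).

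Of 10765 named genes compared over the 12 libraries, those closest in pattern to Tnfaip3 were Zc3h12d, Tcp11l2, Rgs10, Upp1 and Slc35f5, by the root mean square difference of mean-centred log2 CPM (0.19, 0.23, 0.23, 0.25 and 0.25). Zc3h12d averaged 188 ± 5.77 CPM in Th17 KO, 197 ± 10.1 CPM in Th17 WT, 33.2 ± 1.68 CPM in Th1 KO and 42.3 ± 3.99 CPM in Th1 WT. Upp1, encoding uridine phosphorylase, averaged 82.9 ± 12.8, 76.5 ± 12.1, 9.67 ± 2.55 and 15.3 ± 1.37 CPM in the same groups, with its higher Th17 mean in KO, where that of Tnfaip3 was in WT.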

How the data were processed

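Poly-A RNA was made into full-length cDNA with SMART-Seq v4 and tagmented with Nextera XT, which keep no strand, per the labels' protocols. The submitters' processing notes name TopHat2, Bowtie2, featureCounts and the build GRCm38 (mm10). Versions and annotation release are not given in the sources used here. Raw read counts for each Ensembl ID were deposited by the authors, and the values are whole numbers. Of 39179 IDs, 37607 (96.0%) were named with a GENCODE annotation of GRCm38.

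Counts were normalised by TMM and filtered with filterByExpr in edgeR 4.0.16 (12189 genes left). Groups were compared with its quasi-likelihood F-test (robust) on all 12 samples, with Benjamini-Hochberg adjustment over all genes in each of 5 comparisons and a threshold of 0.05. Positive values mean higher in KO or in Th17. SEs are the log2 fold change divided by the root of F. CPM are given as mean ± SD, and levels between genes per kb of merged exons. The test was checked on simulated counts. Of 1.5-fold changes it recovered 58% in KO over WT in Th17, 64% in KO over WT in Th1 and 32% in the interaction. Of its calls there, 9.27%, 5.59% and 11.5% were false in the same order. In Th17 over Th1 it recovered 66% in KO and in WT, with 5% and 4.94% of calls false. Alternatives were RLE size factors, DESeq2 1.42.0, limma-voom with sample weights (limma 3.58.1), no filter, only the groups compared, libraries thinned to the smallest total, no shallow libraries, no dominant ID, and each sample left out. All 10 genes were named in each comparison, and of each list at most the 2 of smallest adjusted p in each direction. Cd83, Itch, Commd1, Tax1bp1, Chuk and Rbck1 were named without regard to that order. The genes, lists and alternatives were chosen with earlier results of these data known. Replicate numbers follow the order of deposit and pair nothing. R 4.3.3 and Python 3.11.15 were used. Values of some genes of the lists and markers are not reported here.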

Additional observations from a re-analysis of the deposited data

How the results depend on the processing

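Of 1000 values of the 10 genes under 20 alternatives, 896 kept direction and side of the threshold, 44 lost a call, 24 gained one and 36 changed sign. Tnfaip3, Nfkbia, Nfkb2 and Relb kept their Th17 over Th1 calls under all 20 in both genotypes. No paired analysis was possible because the labels give no replicate numbers shared between groups and do not name the co-culture of a sample. A fit paired by co-culture could change calls of KO against WT and was not made. In Th1, the count of genes lower in KO was 2 with DESeq2, 0 after thinning and 1 to 5 with 1 library left out. The count higher was 1 with limma-voom, on the Th1 groups only and without the shallow libraries. In Th17, the count lower in KO was 0 with DESeq2, 2 with no filter, 0 on the Th17 groups only and 0 to 2 with 1 library left out. The count higher was 1 with no filter and 0 to 1 with 1 left out. In Th17 KO over Th1 KO, the count lower was 1 with DESeq2, RLE, only those groups and no dominant ID, and 1 to 2 with 1 left out. In WT it was 0 to 1 with 1 left out. The interaction count higher was 1 with no filter and 0 to 1 with 1 left out. After thinning, the Th1 values of Tnfaip3, Relb, Rel and Bcl3 were -0.27, -0.42, -0.90 and -0.37 and did not pass (adjusted p = 0.259, 0.236, 0.147 and 0.324). The cause of these changes was not tested.

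Values that changed sign, none called except those of Itch, were as follows. In KO over WT in Th1, Rela was 0.018 after thinning and -0.11 to 0.0075 with 1 library left out, and Nfkbid -0.25 to 0.033. In KO over WT in Th17, Nfkb1 was -0.032 after thinning and -0.015 to 0.076 with 1 left out, Rel 0.0013 with no filter, 0.062 after thinning and -0.12 to 0.10, Relb 0.0027 without the shallow libraries and -0.17 to 0.10, and Nfkbid 0.029 without the shallow libraries and -0.38 to 0.22. In Th17 over Th1, Itch was 0.036 in KO and 0.064 in WT after thinning, and Nfkb1 in WT was 0.0064 on those groups only, 0.016 after thinning and -0.058 to 0.033 with 1 left out. In the interaction, Rela was -0.23 after thinning and -0.031 to 0.085 with 1 left out, Nfkbid -0.032 with DESeq2, -0.058 after thinning and -0.32 to 0.29, Nfkbiz 0.18 after thinning and -0.19 to 0.11, and Bcl3 -0.19 to 0.031. Of 1200 counts in the pathway lists, 1110 stayed within 1.5 times.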
